A study of Mus musculus with 6 samples.

Results

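The clustered and linker histone genes are described here in osteoblast cultures that did or did not carry the APPswe transgene. A gene was a member where its symbol in the deposited table named a gene of the histone clusters (Hist followed by a cluster number, or H2ac, H2bc, H2c, H3c or H4c followed by a number) or an H1 linker histone (H1f followed by a number), and 63 of the 17830 genes in the table were members. They comprised 9 H1, 15 H2A, 16 H2B, 11 H3 and 12 H4 genes. H2c8 was placed with H4, because RefSeq names the same gene H4c8.

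The study compared cells grown out of skull bone chips of mice aged 6 months and sorted for the red reporter tdTomato, in 3 libraries per genotype. All mice carried mOCN-Cre, which places Cre under the osteocalcin gene, and Ai9, an allele that makes tdTomato once Cre has acted. The control mice were mOCN-Cre;Ai9, and the APPswe mice (TgAPPswe mOCN-Cre;Ai9) carried in addition a human APP transgene with the Swedish mutation, expressed where Cre had acted. The paper draws both genotypes as male, the cells were replated in culture before the sort, and the labels do not say whether each library came from a separate animal, so p-values measure only the spread between these libraries.

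Histone proteins package DNA into nucleosomes, in which DNA winds around a core of H2A, H2B, H3 and H4, while the linker histone H1 binds where DNA enters and leaves that core. Most core histone genes lie in clusters and are transcribed mainly during S phase, when new DNA has to be packaged, and their mRNAs end in a stem-loop bound by the protein Slbp in place of a poly(A) tail. Replacement histones, such as H1f0, H2afz and H3f3a, are made outside S phase too, from polyadenylated mRNAs.

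The stem-loop was searched for in the GENCODE M21 transcripts of the members, since it sets apart the transcripts that need no tail. A stem-loop of 16 bases with complementary arms was found in transcripts of 42 of the 63 members (66.7%), against 0.0416% of all 141767 transcripts, and it began between 21 and 58 bases past the stop codon. The share of members is counted by gene and the other by transcript, with the members' transcripts included. The 7 sites below belong to the 5 members called lower in APPswe libraries that have one, and to H1f2 and H2ac18, the H1 and H2A genes with the highest FPKM averaged over all 6 libraries. Capitals mark the stem-loop, lower case its flanks, and the sites are read 5′ to 3′ on the gene's strand of GRCm38.

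H1f2, 3′ UTR, chr13:23739512-23739527, plus strand: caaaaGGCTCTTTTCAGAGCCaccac
H2ac18, 3′ UTR, chr3:96246032-96246047, plus strand: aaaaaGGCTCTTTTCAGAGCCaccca
H2bc6, 3′ UTR, chr13:23585531-23585546, minus strand: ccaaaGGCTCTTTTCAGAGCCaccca
H3c14, 3′ UTR, chr3:96247327-96247342, plus strand: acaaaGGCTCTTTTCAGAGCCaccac
H2c8, 3′ UTR, chr13:23531458-23531473, plus strand: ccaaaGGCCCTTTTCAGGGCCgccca
H4c9, 3′ UTR, chr13:22040966-22040981, minus strand: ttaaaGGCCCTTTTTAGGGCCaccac
Hist1h4m, 3′ UTR, chr13:21812129-21812144, plus strand: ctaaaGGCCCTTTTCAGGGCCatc

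The H1, H2A, H2B and H3 sites printed here held the same stem-loop, which was the most frequent form, present in 23 members. The H4 sites differed from it in the arms or the loop. Annotated transcripts of several of these genes ran on past the stem-loop, by 840 bases in H1f2, 1162 in H3c14 and 1861 in H2bc6, whereas that of Hist1h4m ended 3 bases after it.

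The members lay mostly on chromosome 13, with 52 genes between 21715711 and 23764412 on GRCm38 (the assembly of the RefSeq table is GRCm38.p6), followed by 8 on chromosome 3, 2 on chromosome 6 and H1f0 alone on chromosome 15. On chromosome 13 they fell into a block of 23 genes up to position 22043658 and a block of 29 genes from position 23531044.

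Total counts ranged from 17263757 to 18398392 per library, and 3 counts, taken as the floor of detection for counting error only, were 0.167 to 0.173 CPM (counts scaled to a common library size, here after TMM normalization). Control replicate 2 stood apart: its 4 Y-linked genes had 2 counts against 2257 to 3406 in the other libraries. Its osteoblast markers had a median of 0.281 CPM against 13.0 to 17.5. Of that list, Col1a1 and Runx2 were not low: Col1a1 had 5705 CPM against 4081 and 4746 in control replicates 1 and 3. Runx2 had 27.9 CPM against 19.9 and 18.3. Spp1 had 6092 CPM against 9315 and 9106 in these controls and 3472 to 3691 in APPswe libraries. Control replicate 2 is named Ctrl-S, where the names of all other libraries hold an L, and the labels do not explain these letters. Its summed S phase genes stood at 2152 CPM against 1060 to 1144. Bglap, the osteocalcin gene whose promoter drives Cre, had 1 count in it and 115 to 204 counts in the others, with a log2 fold change of 0.12 between genotypes (edgeR adjusted p = 0.945) and of -0.46 without it (edgeR adjusted p = 0.0337). Fold changes of the members and the counts over lists are therefore given with and without this library. Mepe, of the same list, had counts in control replicate 1 alone. Macrophage markers were abundant in every library, with sums of 18252 to 25041 CPM in control and 12642 to 13609 CPM in APPswe libraries. By the adjusted p, 8 of the 13 were lower in APPswe libraries, where 12.0% of all genes tested were. Cd14 was called lower (log2 fold change -1.09, edgeR adjusted p = 0.0303) and Aif1 was called higher (log2 fold change 1.18, edgeR adjusted p = 0.0205). Without control replicate 2, 10 were lower and 2 higher by the adjusted p, where 25.0% and 23.3% of all genes were. Aif1, at 0.91, and Cd14, at -0.70, were then no longer called. All 9 skeletal muscle markers tested were called higher in APPswe libraries, with and without control replicate 2. The sum of that list was 143 to 153 CPM in APPswe libraries against 2.14 to 9.56 CPM in control. Of 7 osteoclast markers tested, 4 were called higher, and 5 without control replicate 2. Their list summed to 158 to 290 CPM in control and 719 to 731 CPM in APPswe libraries. The osteoblast list summed to 11829 to 14053 CPM in control and 7473 to 7940 CPM in APPswe libraries. That list went both ways: Spp1, which carried much of the sum, was called lower, Sp7 was called higher, and Runx2 was higher by the adjusted p alone. Without control replicate 2, 5 of its 11 tested genes were called lower and 1 higher, where 6.58% and 4.87% of all genes were. Its largest change was that of Dmp1, with 261, 2 and 254 counts in control and 12, 16 and 14 in APPswe libraries. The log2 fold change was -3.64 (edgeR adjusted p = 0.0804), and -4.21 (edgeR adjusted p = 1.44e-08) without control replicate 2. The erythroid and lymphoid lists stayed at or under 1.13 CPM in sum. The part of these cell types in the histone values was not tested. In bulk RNA, fewer cells of a type and less RNA per cell cannot be told apart.

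Few of the histone genes carried most of the signal. Per unit of transcript length (FPKM, as deposited), H2bc4 had the highest mean of the members, at 440.2 ± 158 (SD, n = 3) in control and 262 ± 15.4 in APPswe libraries. H2ac18 followed at 134 ± 53.1 and 76.3 ± 4.28 FPKM, then H1f2 at 101 ± 41.9 and 70.3 ± 12.3, and H1f0 at 45.3 ± 8.32 and 71.6 ± 4.66. These 4 genes held 86.3% to 87.0% of all member counts in control and 91.0% to 92.1% in APPswe libraries. H2ac18 and H1f2 did not differ beyond their spread in either group, and neither did H1f2 and H1f0 in APPswe libraries. At the other end, 41 to 51 members per library had under 10 counts, and H2ac19, H2ac20, Hist1h2an and Hist1h2ap had none in any library.

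Of the 63 members, 16 passed the filter on low counts and were compared between genotypes with edgeR's quasi-likelihood test, adjusted over all 13484 genes tested. Called genes are those with an adjusted p no higher than 0.05 and a log2 fold change of 1 or more in size. Values of libraries are given in the order of replicates 1, 2 and 3 throughout. In APPswe libraries 7 members were called lower, namely H2bc6, Hist1h2bq, Hist1h2br, H3c14, H2c8, H4c9 and Hist1h4m, where 3.60% of all genes tested were. Hist1h2bq and Hist1h2br, near-identical copies whose counts differ by at most 1 in any library, are a single measurement, counted as 2 genes here and in the counts that follow. No member was called higher, against 3.74% of all genes. That count of 0 was the same with DESeq2, and by an unadjusted edgeR p of at most 0.05 with the same fold limit. By the adjusted p alone the 7 lower members stayed and H1f0 was higher, with backgrounds of 12.0% lower and 10.5% higher. The 2 groups of libraries did not overlap for 9 members that were lower in APPswe (background 22.2%) and 3 that were higher (22.8%). The log2 fold change was below 0 in 13 of the 16 (background 50.4%), and its median over the 16 was -0.81 beside 0.00 over all genes tested, the latter at -0.0033 before rounding. Hist1h4m, H2bc6 and H2ac7 passed the filter through their control libraries, so their part in these counts and in the median is not independent of the filter. The calls moved with single libraries. Without control replicate 2, 18 members were tested and 11 called lower, where 6.58% of all genes were, and all 7 earlier ones were among them. The additions were H2ac18, H2bc4, H3c4 and Hist1h4n, and the median was -1.18. H3c4 and Hist1h4n entered that fit through their counts in control replicates 1 and 3 (22 and 24, and 38 and 30). They could hardly be called higher in it. None was called higher in that fit, against 4.87% of all genes, and by the adjusted p alone 13 were lower (background 25.0%) and 1 higher (23.3%). Without control replicate 1, and likewise without control replicate 3, the calls that remained were those of Hist1h2bq, Hist1h2br and Hist1h4m. Without APPswe replicate 2 it was H2bc6 alone, without APPswe replicate 3 Hist1h4m alone, and without APPswe replicate 1 it was 0 members.

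**Figure D1:**
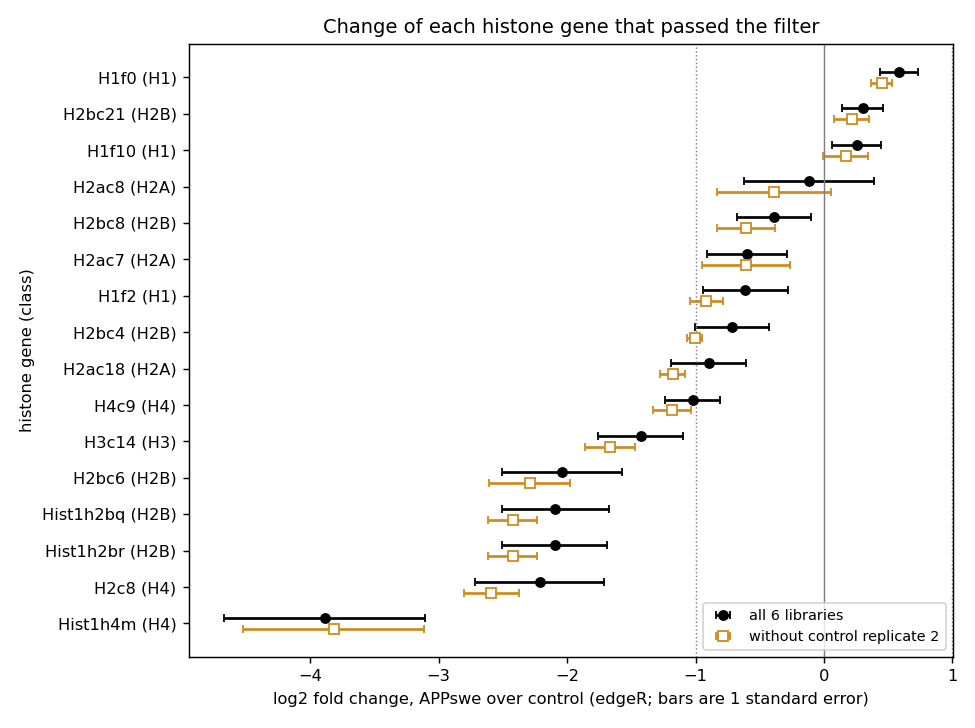
Log2 fold change of APPswe over control for the 16 histone genes that passed the filter, on the horizontal axis, with bars of 1 standard error; filled circles use all 6 libraries and open squares leave out control replicate 2, and dotted lines mark a log2 fold change of 1 in either direction. H1f0, H2bc21 and H1f10 lie above 0 in both fits and Hist1h4m lies lowest, at -3.89 with all libraries.

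Of the linker histones, H1f0 was higher in APPswe libraries by the adjusted p alone, while H1f2 and H1f10 did not pass the test. H1f0, the replacement linker histone of cells that divide little, had 98.2, 75.3 and 111 CPM in control replicates 1, 2 and 3 and 130.2, 147 and 149 CPM in APPswe replicates 1, 2 and 3. Every APPswe library was above every control library. Its log2 fold change was 0.59 (standard error 0.15, edgeR adjusted p = 0.0325), under the limit of 1 set for a call, and without control replicate 2 it was 0.45 (edgeR adjusted p = 0.00113). Its edgeR adjusted p rose to 0.0747, 0.0729, 0.117 and 0.12 without control replicate 1 and APPswe replicates 1, 2 and 3. H1f2, a cluster gene and one of the main somatic linker histones, had 58.3, 25.7 and 62.4 CPM in control and 25.1, 35.9 and 34.8 CPM in APPswe libraries. Control replicate 2 lay among the APPswe libraries, so the groups overlapped. The log2 fold change was -0.61 (standard error 0.33, edgeR adjusted p = 0.226) with all libraries and -0.91 (edgeR adjusted p = 0.000183) without control replicate 2. H1f10, another replacement linker histone, had 3.12, 2.42 and 2.77 CPM in control and 3.20, 3.57 and 3.15 CPM in APPswe libraries. Its groups were separate, but by a small step, and its log2 fold change, 0.26, did not pass the test (edgeR adjusted p = 0.366), nor did the 0.17 without control replicate 2. The ratio of H1f0 to H1f2 counts, in which the library size cancels, was 1.69, 2.92 and 1.77 in control and 5.19, 4.10 and 4.28 in APPswe libraries, so it was higher in each APPswe library than in any control library. The other 6 H1 members had 1 to 41 counts over all libraries and were not tested. In sum the H1 class stood at 161, 105 and 178 CPM in control and 159, 187 and 188 CPM in APPswe libraries, and the groups overlapped.

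Among H2A genes, none was called by edgeR or by DESeq2, and 1, H2ac18, had an unadjusted edgeR p of at most 0.05. H2ac18, the one with the highest FPKM, had 45.8, 23.2 and 54.1 CPM in control and 20.2, 23.1 and 22.8 CPM in APPswe libraries. The groups were separate, though the lowest control library, replicate 2, exceeded the highest APPswe library by less than 1 CPM. The log2 fold change was -0.90 (standard error 0.29, edgeR adjusted p = 0.0689), and -1.18 (edgeR adjusted p = 3.61e-06) without control replicate 2. By DESeq2 with all libraries it was lower by the adjusted p alone (DESeq2 adjusted p = 0.0103). H2ac18 and H2ac19 are near-identical, and all windows of 50 bases in the H2ac19 transcript also occurred in H2ac18. H2ac19 had 0 counts and H2ac18 had 3345, and how reads that match both were assigned is not given in the sources used here, so the value may stand for the pair. H2ac7 had 1.04, 0.899 and 0.790 CPM in control and 0.505, 0.780 and 0.506 CPM in APPswe libraries. Its groups barely separated, and its log2 fold change, -0.60, did not pass the test (edgeR adjusted p = 0.208), and it was -0.60 without control replicate 2 too. H2ac8, with 60 counts in all, had overlapping groups and a log2 fold change of -0.11, or -0.39 without control replicate 2, and passed neither test. The class summed to 48.4, 25.5 and 57.1 CPM in control and 22.0, 25.6 and 24.9 CPM in APPswe libraries, with control replicate 2 inside the APPswe range.

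The H2B genes split into members that were called lower, members that did not pass the test and one whose fold change lay above 0. H2bc6 had 3.64, 1.85 and 3.56 CPM in control and 0.505, 1.23 and 0.450 CPM in APPswe libraries. The groups were separate, and the log2 fold change was -2.04 (standard error 0.47, edgeR adjusted p = 0.0239), and -2.29 (edgeR adjusted p = 0.000159) without control replicate 2. Its annotated gene spans 37455 bases, and 10.1% of the windows of 50 bases in its transcripts also occurred in those of H1f4, so its reads may be shared. Hist1h2bq had 116, 42 and 103 counts in control and 18, 20 and 24 counts in APPswe libraries. Hist1h2br had the same counts in all libraries but control replicate 2, where it had 43. Of the windows of 50 bases in Hist1h2bq, 97.3% also occurred in Hist1h2br, so the counts of the pair cannot be told apart and are a single measurement. The log2 fold changes were -2.09 (standard error 0.42, edgeR adjusted p = 0.0156) and -2.10 (standard error 0.41, edgeR adjusted p = 0.0146), and both were -2.42 (edgeR adjusted p = 2.53e-06) without control replicate 2.

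H2bc4, the member with the highest FPKM, had 227, 99.7 and 217 CPM in control and 111, 109.9 and 109.9 CPM in APPswe libraries. Control replicate 2 lay below the APPswe libraries, which were close together, and the other controls lay well above. The log2 fold change was -0.72 (standard error 0.29, edgeR adjusted p = 0.122) with all libraries and -1.01 (edgeR adjusted p = 3.01e-07) without control replicate 2, while the DESeq2 adjusted p with all libraries was 0.0358. H2bc8 had 1.85, 1.01 and 1.69 CPM in control and 1.18, 1.11 and 1.18 CPM in APPswe libraries, and its log2 fold change was -0.39 and did not pass the test (edgeR adjusted p = 0.373), while without control replicate 2 it was -0.61 (edgeR adjusted p = 0.0492). H2bc21 had 6.35, 5.40 and 6.77 CPM in control and 6.95, 8.58 and 7.30 CPM in APPswe libraries. All APPswe libraries exceeded all control libraries, but the log2 fold change, 0.30, did not pass the test (edgeR adjusted p = 0.217), nor did the 0.22 without control replicate 2. The class summed to 254, 113 and 243 CPM in control and 123, 124 and 122 CPM in APPswe libraries, an overlap set by control replicate 2, and H2bc4 dominated it.

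For H3 genes, H3c14 was the 1 member that passed the filter and it was called lower. It had 9.70, 5.62 and 11.2 CPM in control and 2.35, 3.18 and 4.33 CPM in APPswe libraries. The groups were separate, and the log2 fold change was -1.43 (standard error 0.33, edgeR adjusted p = 0.0250), and -1.67 (edgeR adjusted p = 5.17e-05) without control replicate 2. H3c14 lies beside H2ac18 on chromosome 3. H3c4, the H3 gene with the next highest FPKM, had 22, 5 and 24 counts in control and 3, 9 and 6 counts in APPswe libraries and did not pass the filter with all libraries. Without control replicate 2 it passed the filter through its control counts and was called lower, with a log2 fold change of -1.94. The class summed to 13.2, 6.97 and 14.0 CPM in control and 3.03, 4.85 and 5.68 CPM in APPswe libraries, and the groups did not overlap. H3c14 held most of that sum in every library.

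All 3 H4 genes that passed the filter were called lower. H4c9, with the highest FPKM of the class (41.4 ± 10.5 in control and 22.0 ± 1.21 in APPswe libraries, SD, n = 3), had 6.58, 4.78 and 7.62 CPM in control and 3.03, 3.34 and 2.98 CPM in APPswe libraries. Every control library lay above every APPswe library, and the log2 fold change was -1.02 (standard error 0.21, edgeR adjusted p = 0.0186), and -1.18 (edgeR adjusted p = 9.04e-05) without control replicate 2. H2c8 had 6.53, 2.25 and 8.18 CPM in control and 0.841, 1.45 and 1.35 CPM in APPswe libraries. The groups were separate with control replicate 2 nearest to APPswe, and the log2 fold change was -2.21 (standard error 0.50, edgeR adjusted p = 0.0239), and -2.59 (edgeR adjusted p = 3.90e-06) without control replicate 2. Hist1h4m had 14, 18 and 17 counts in control and 0, 0 and 3 counts in APPswe libraries, the one called member for which control replicate 2 was the highest library. The summed counts were 49 in control and 3 in APPswe, a ratio of 16.6 per normalized library total (95% exact interval 5.35 to 83.1, counting error only). The fitted log2 fold change was -3.89 (standard error 0.79, edgeR adjusted p = 0.0164), or -3.82 (edgeR adjusted p = 0.00123) without control replicate 2, and depends on the prior count of the fit. The transcripts of Hist1h4m shared 89.8% of their windows of 50 bases with Hist1h4n, which had 38, 0 and 30 counts in control and 5, 4 and 3 in APPswe libraries. In control replicate 2 all 18 counts of the pair fell on Hist1h4m, whereas Hist1h4n had more than Hist1h4m in the other control libraries, and how reads shared by the pair were assigned is not known here. The class summed to 17.5, 9.05 and 20.3 CPM in control and 4.88, 5.85 and 6.01 CPM in APPswe libraries, without overlap. H4c9 and H2c8 together held most of that sum in every library.

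**Figure D2:**
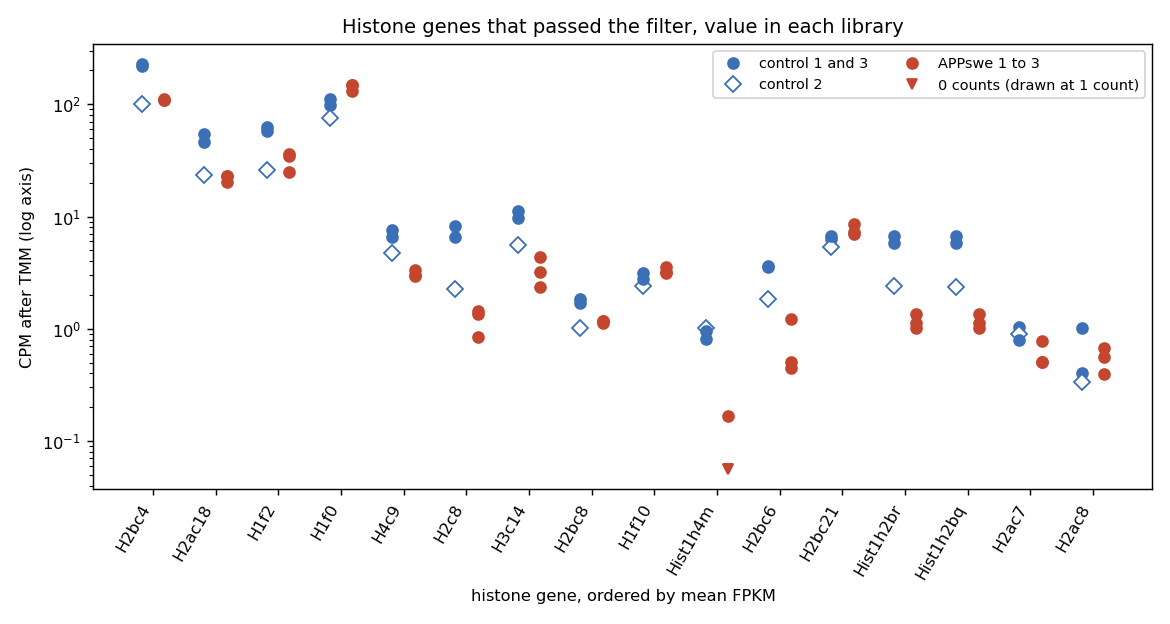
CPM after TMM normalization (vertical log axis) of the 16 histone genes that passed the filter, ordered by mean FPKM, with a point for each library; blue marks control, with replicate 2 as an open diamond, and red marks APPswe, with downward triangles for 0 counts drawn at the level of 1 count. Control replicate 2 sits nearest to or among the APPswe points for most genes, and above the other controls for Hist1h4m.

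**Figure D3:**
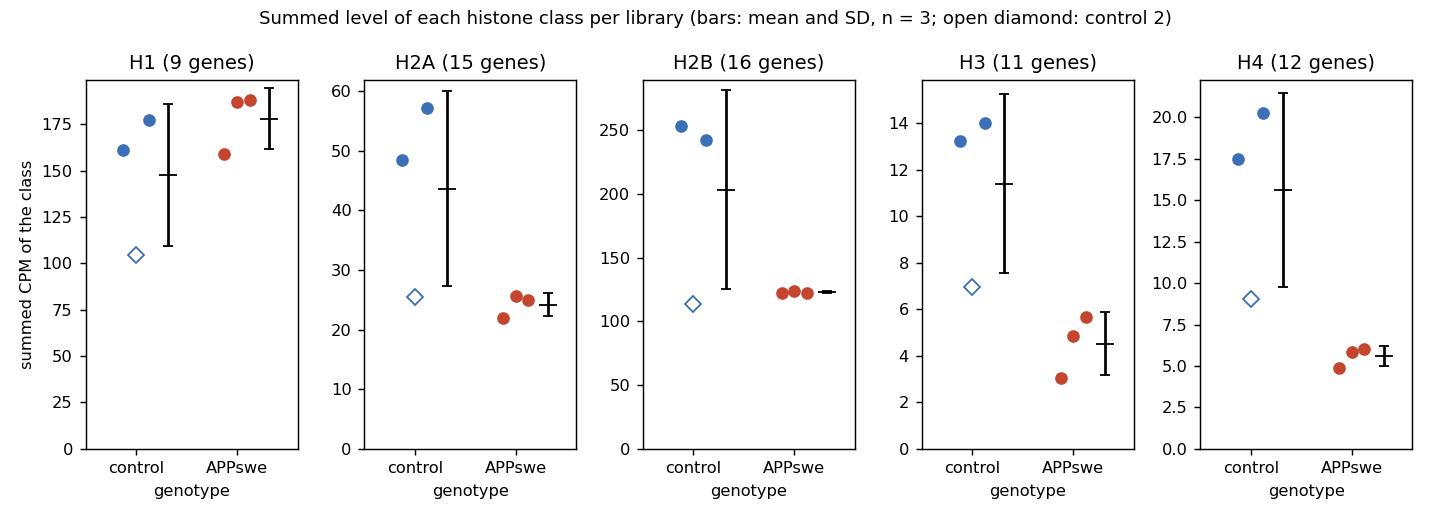
Summed CPM of all members of each histone class (vertical axes from 0) by genotype, with a point per library, the open diamond for control replicate 2, and black bars for mean and SD (n = 3). The H3 and H4 sums do not overlap between genotypes, while the H1, H2A and H2B sums do. Called genes, H3c14 in H3 and H4c9 with H2c8 in H4, hold most of those sums without overlap.

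The 47 members that did not pass the filter had 0 to 80 counts each over all 6 libraries. Of these 4 had no counts, 20 had 1 to 9 and 23 had 10 or more. Together they had 183, 94 and 198 counts in control and 67, 92 and 97 counts in APPswe libraries, with control replicate 2 within the APPswe range. Of these, H3c4 and Hist1h4n passed the filter without control replicate 2, through their control counts, and were then called lower (log2 fold changes -1.94 and -3.07). With no filter on low counts edgeR tested 59 members and called H1f3 lower in addition to the 7, and limma on FPKM values called H3c2 lower in each of its fits, with H1f3, H2ac6 and H4c1 as well where 0.1 was added to the FPKM. By class they were 6 H1, 12 H2A, 10 H2B, 10 H3 and 9 H4 genes.

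By position, the 4 genes tested in the first block of chromosome 13, H4c9, Hist1h4m and the pair Hist1h2bq and Hist1h2br, were all called lower. In the second block 2 of 7 were, H2c8 and H2bc6, and on chromosome 3 it was H3c14 of 3. This is a description of few genes, and the Hist1h2b pair counts as a single measurement within it.

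The annotated ends of the transcripts were set beside these values. A stem-loop was found without a polyadenylation signal (AATAAA in the last 40 bases) in 33 members, of which 6 were tested and 3 called lower. Both features occurred among the transcripts of 9 members, with 4 tested and 2 called lower. The signal without a stem-loop occurred in H1f0, H1f10, H1f8, H2bc21, Hist1h2bq and Hist1h2br, of which 5 were tested and the last pair called lower. Neither was found in 15 members, for 10 of which the annotation holds no 3′ UTR to search. H2bc4, the member with the highest FPKM, was one of the 15. All 3 members with a log2 fold change above 0, H1f0, H1f10 and H2bc21, belonged to the group with the signal alone, while all 10 tested members with a stem-loop lay below 0. Hist1h2bq, Hist1h2br and H2bc4 lay below 0 without a stem-loop in their annotated transcripts. For Hist1h2bq and Hist1h2br the annotation holds a 3′ UTR in 2 of 3 transcripts. Absence of a stem-loop here is a statement about the annotation, not about the RNA of these cells. AATAAA was found in the same window in 25.8% of all transcripts, counted by transcript, and in 23.8% of the members, counted by gene. The libraries were made with a SMARTER mRNA-Seq kit, the labels do not say how the RNA was primed, and the part of tail length in these counts was not tested.

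**Figure D4:**
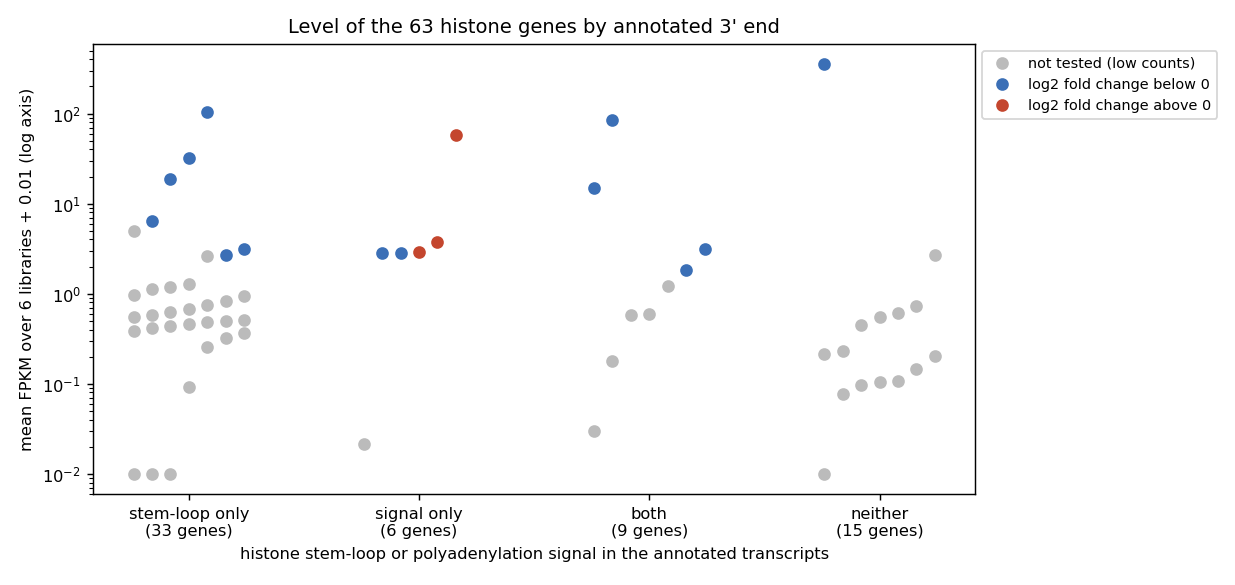
Mean FPKM over the 6 libraries plus 0.01 (vertical log axis) of the 63 histone genes, grouped by whether their annotated transcripts hold a histone stem-loop, a polyadenylation signal, both or neither; each point is a gene, grey where it was not tested, blue where its log2 fold change was below 0 and red where it was above 0. The 3 red points all stand in the group with the signal alone, and the highest point is H2bc4 in the group with neither.

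Promoters were searched because H2B genes are known to share an octamer bound by Oct1. In the 250 bases before the start of 58 members found in the RefSeq table, the octamer ATTTGCAT, read on both strands, occurred in 42.9% of 14 H2B and 33.3% of 15 H2A promoters, in none of the H1, H3 and H4 promoters, and in 1.81% of those of 27025 genes. The windows of neighbouring H2A and H2B genes, such as H2ac8 and H2bc8, can overlap, so the same octamer can count for both. TATAAA occurred in 43.1% of the 58 against 14.3% of all genes. CCAAT occurred in 81% against 37.5%, in every H2A and H2B promoter and in 27.3% of H4 promoters. None of these motifs holds another whole, but they can share letters at their ends. The 120 bases before the start are shown for H2bc6, a called H2B gene, for H2bc8, an H2B gene that did not pass the test, and for H1f0, the member that was higher, from RefSeq on GRCm38.p6, read 5′ to 3′ on the gene's strand with the octamer and TATAAA in capitals.

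H2bc6, promoter of one of its annotated starts, chr13:23585971-23586090, minus strand: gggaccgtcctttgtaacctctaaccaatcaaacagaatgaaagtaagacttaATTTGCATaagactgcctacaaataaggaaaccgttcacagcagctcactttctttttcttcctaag
H2bc8, promoter, chr13:23571280-23571399, plus strand: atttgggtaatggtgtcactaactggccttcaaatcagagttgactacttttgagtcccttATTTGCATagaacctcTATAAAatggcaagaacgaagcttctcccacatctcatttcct
H1f0, promoter, chr15:79028092-79028211, plus strand: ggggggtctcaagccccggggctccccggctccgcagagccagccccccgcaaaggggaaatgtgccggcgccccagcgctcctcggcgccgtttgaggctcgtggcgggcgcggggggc

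The H2B promoters shown held the octamer, while none was found at the other annotated start of H2bc6, and the H1f0 promoter held none of the 3 motifs. The windows of Hist1h2bq and Hist1h2br were the same over all 120 bases.

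The genes that act with the histone genes were read from lists fixed by symbol. Of the 10 replacement histone genes tested, a list that also holds the member H1f10, none was called by edgeR or DESeq2, but H2afv, Macroh2a2, H3f3a and H3f3b were higher by the adjusted p alone, which was 4 of 10 beside 10.5% of all genes. The count was 6 without control replicate 2, beside 23.3% of all genes. Macroh2a2, a large H2A variant of silent chromatin, had 13.5, 13.4 and 13.2 CPM in control and 21.5, 22.6 and 23.4 CPM in APPswe libraries. Its groups were far apart against their spread, and the log2 fold change was 0.76 (standard error 0.09, edgeR adjusted p = 0.003) with all libraries and 0.76 without control replicate 2. H3f3a and H3f3b encode the same replacement histone, H3.3. H3f3a had 330.1, 289 and 263 CPM in control and 436, 398 and 395 CPM in APPswe libraries, and its log2 fold change was 0.48 (edgeR adjusted p = 0.020), or 0.47 without control replicate 2, with an adjusted p of 0.06 without control replicate 3 and between 0.0765 and 0.0801 without any 1 APPswe library. H3f3b had 442, 423 and 418 CPM in control and 638, 607 and 627 CPM in APPswe libraries, and its log2 fold change was 0.55 (edgeR adjusted p = 0.004), or 0.54 without control replicate 2. Neither gene's groups overlapped, and the direction was thus the reverse of that of the H3 cluster gene H3c14. H2afz, the H2A.Z gene, had a log2 fold change of 0.06, and Cenpa, the H3 variant of centromeres, one of -0.09, and neither passed the test with all libraries. Without control replicate 2 both were higher by the adjusted p alone, H2afz at 0.26 (edgeR adjusted p = 0.0038) and Cenpa at 0.25 (edgeR adjusted p = 0.0264). Without control replicate 1 or 3, H2afz was at -0.03 and -0.04.

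Of 17 genes for histone mRNA transcription and 3′ end processing, Sympk, a scaffold of the cleavage complex, was lower by the adjusted p alone, with 103, 148 and 118 CPM in control and 72.5, 86.6 and 86.3 CPM in APPswe libraries (log2 fold change -0.59, edgeR adjusted p = 0.034). It was at -0.43 without control replicate 2, and its adjusted p was between 0.0667 and 0.124 without control replicate 3 or any 1 APPswe library. Sympk was the only gene of the list to pass with all libraries, where 12.0% of all genes were lower. By the adjusted p alone, 3 genes of the list were higher and 1 lower without control replicate 2, where 23.3% and 25.0% of all genes were. Slbp, which binds the stem-loop, had 48.7, 60.3 and 48.6 CPM in control and 50.5, 48.0 and 50.0 CPM in APPswe libraries. Npat, the coactivator of histone gene transcription, had 20.1, 27.0 and 17.8 CPM in control and 23.3, 21.7 and 19.1 CPM in APPswe libraries. Both overlapped between groups, with log2 fold changes of -0.09 and -0.02 that did not pass the test. Of 22 histone chaperone genes, Ubn2, a subunit of the HIRA complex that deposits H3.3, was higher by the adjusted p alone, with 31.4, 31.4 and 31.7 CPM in control and 49.2, 43.0 and 43.8 CPM in APPswe libraries (log2 fold change 0.52 with and without control replicate 2, edgeR adjusted p = 0.007 with it). The chaperone list as a whole had 16 of 22 log2 fold changes below 0, and its groups were separate with APPswe lower for 8 genes and higher for 1, where 22.2% and 22.8% of all genes were. By the edgeR adjusted p with all libraries, only Ubn2 of this list passed, where 10.5% of all genes were higher. Without control replicate 2, 4 were higher and 4 lower, where 23.3% and 25.0% of all genes were. The lower ones were Asf1b, Chaf1a, Chaf1b and Mcm2.

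Cluster histone levels were set beside those of S phase genes, since both are made for DNA replication. Of 32 S phase genes none was called by edgeR and 1 by DESeq2. By edgeR, 8 had an unadjusted p of at most 0.05, all lower, and Mcm3, Fen1, E2f1 and Rrm2 were lower by the adjusted p alone, a share near the 12.0% of all genes tested. Without control replicate 2, 8 were lower by it and 3 higher, where 25.0% and 23.3% of all genes were. Mcm3, of the replicative helicase, had 64.3, 113 and 70.4 CPM in control and 47.6, 48.5 and 44.1 CPM in APPswe libraries (log2 fold change -0.82, edgeR adjusted p = 0.036), and Rrm2, a ribonucleotide reductase subunit, had 80.1, 95.2 and 76.4 and then 61.3, 61.2 and 60.3 CPM (log2 fold change -0.46, edgeR adjusted p = 0.019). Without any 1 APPswe library the adjusted p was between 0.118 and 0.133 for Mcm3 and between 0.0753 and 0.0911 for Rrm2, and without control replicate 2 the log2 fold changes were -0.52 and -0.36. Pcna, the sliding clamp of DNA synthesis, had a log2 fold change near -0.37, which did not pass the test (edgeR adjusted p = 0.136). The median of the list was -0.55 with all libraries and -0.05 without control replicate 2, whereas that of the histone members was -0.81 and -1.18. Of 17 mitosis genes none passed the test by edgeR or DESeq2, and 1 was lower at an unadjusted edgeR p of at most 0.05. Without control replicate 2, 6 were higher and 1 lower by the edgeR adjusted p, where 23.3% and 25.0% of all genes were. The median of the mitosis list went from -0.49 to 0.17. Mki67, a marker of cycling cells, had 93.7, 262 and 90.1 CPM in control and 105, 98.3 and 106 CPM in APPswe libraries, and only control replicate 2 stood out among the 6. App, the mouse gene, stood at -0.11 on the log2 scale (edgeR adjusted p = 0.507), and since reads of the transgene were not analysed apart from it here, it does not check the genotype labels.

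A set of 59 cluster genes, that is all members but H1f0, H1f8 and H1f10, which lie outside the clusters, and H1f6, a linker gene inside them with 1 count in all, summed to 392, 182 and 398 CPM in control and 178, 196 and 194 CPM in APPswe libraries. H2bc4, with no stem-loop found in its annotated transcript, was the largest part of each sum. It had 227, 99.7 and 217 CPM in control and 111, 109.9 and 109.9 CPM in APPswe libraries. The histone sum and its ratio to other sums thus follow few genes. The 32 S phase genes summed to 1141, 2152 and 1144 CPM in control and 1102, 1086 and 1060 CPM in APPswe libraries. Control replicate 2 thus had the most S phase RNA of the 6 libraries together with a histone sum as low as that of APPswe libraries. The ratio of the sums was 0.344, 0.0845 and 0.348 in control and 0.162, 0.181 and 0.183 in APPswe libraries, so the APPswe libraries lay between control replicate 2 and the other controls.

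**Figure D5:**
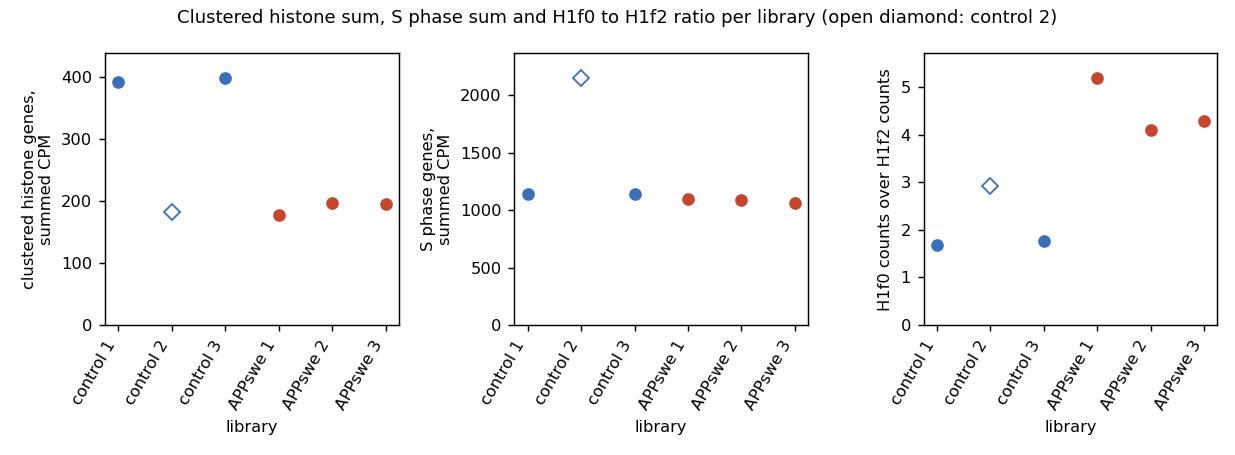
Summed CPM of the 59 cluster histone genes, summed CPM of the 32 S phase genes and the ratio of H1f0 to H1f2 counts (vertical axes from 0), each with a point per library; blue marks control, with replicate 2 as an open diamond, and red marks APPswe. Control replicate 2 is at 182 CPM for histones and 2152 CPM for S phase genes, and the count ratio is above 4 in all APPswe libraries and below 3 in all controls. H2bc4 is the largest part of each histone sum.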

How the data were processed

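RNA of sorted tdTomato-positive skull osteoblasts was sequenced on the DNBseq platform. The authors deposited read counts per gene without normalization, and FPKM values that they computed and rounded. The deposited log2 fold changes and p-values are the authors' own comparison and were not used. The submitters' processing notes name GRCm38, and the aligner and the counting tool are not given in the sources used here. Blank FPKM cells, present in 1113 genes, were read as 0.

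The counts were normalized by TMM and tested with edgeR 4.0.16 (filterByExpr, glmQLFit, glmQLFTest) in R 4.3.3, with all 6 libraries and no covariate, and Benjamini-Hochberg adjustment ran over the 13484 genes that passed the filter. The study names DESeq2, which was run here as an alternative (1.42.0), beside limma 3.58.1 on log2(FPKM + 1) and log2(FPKM + 0.1). The standard error is the log2 fold change over the square root of F. CPM are after TMM. The tests were tested on simulated data.

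The members and gene lists were chosen with earlier results of these data known. Named genes are all called members, the 2 of each class with the highest FPKM, the 3 highest and 3 lowest fold changes, all tested H1 genes, the extreme genes of each list with an adjusted p up to 0.05, and Slbp, Npat, Cenpa, H2afz, H3f3a, H3f3b, Mki67, Pcna, App and Bglap. H2ac8, H2ac19, Hist1h4n and other genes outside it were added once their values were known. Member transcripts came from GENCODE M21 (all 63 matched by NCBI gene number), promoters from RefSeq on GRCm38.p6 (58 matched). Library pairs differed by more than sampling noise. The closest pair, APPswe replicates 2 and 3, had a chi-square of 1.57 per degree of freedom. The other APPswe pairs had 7.10 and 7.60, and control replicates 1 and 3 had 5.94. These values do not tell whether libraries came from separate animals, and each library was kept as a replicate.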

Additional observations from a re-analysis of the deposited data

How the results depend on the processing

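The number of members called lower, 7 with all libraries, was 3 with a replicate block, 4 with limma on log2(FPKM + 1) without a filter, 0 with the limit on the adjusted p at 0.01, and between 0 and 11 when single libraries were left out. It stayed between 5 and 10 under the other settings, and 0 members were called higher under any setting that kept the fold limit, 1 (H1f0) without it. The median log2 fold change of the members stayed below 0 under all settings run, between -1.18 and -0.67 without single libraries and at -0.19 with limma on log2(FPKM + 1) without a filter, where 59 members were counted. The share of higher among all called genes was 50.9%, and 63.4%, 63.3% and 64.2% with limma on log2(FPKM + 1), on log2(FPKM + 0.1) and without a filter. The cause of these differences was not tested.

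No log2 fold change of a named tested member reversed. Signs of other genes, none of which passed the test with all libraries, did. Without single libraries, Slbp ranged from -0.144 to 0.0276, Npat from -0.147 to 0.176, Cenpa from -0.241 to 0.251, H2afz from -0.0356 to 0.260, Mki67 from -0.792 to 0.168, App from -0.199 to 0.0051 and Bglap from -0.461 to 0.696, and for all but H2afz the sign turned without control replicate 2. Npat was at 0.0508 without TMM, at 0.0887 with the style of library names as a covariate, and at 0.0479, 0.0616 and 0.0479 in the 3 limma fits in the order above. Cenpa was at 0.0783, 0.0823 and 0.0783 in these fits, and Bglap at -0.0324 with the covariate.

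Deviations from the group means correlated at 0.07, -0.04 and 0.16 for libraries with the same replicate number in their titles. For different numbers they correlated between -0.22 and 0.12. With 3 libraries per group and control replicate 2 far from the other controls, these values cannot decide whether libraries were paired. With the replicate block, 4 of the 7 calls, H2bc6, H2c8, H4c9 and Hist1h4m, were lost. Low counts kept 47 members out of the test with all libraries, of which H1f3, H3c2, H2ac6, H4c1, H3c4 and Hist1h4n were called lower under at least 1 other setting.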
